A study of Prunus sibirica with 6 samples.

Results

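S-3 is the gene PARG20305 of the Siberian apricot table, described there as ribonuclease S-3, and it was chosen by its identifier as 1 gene of 31889 listed. It lies on linkage group 6, at 2805648 to 2806343 on the minus strand, in the coordinates of the deposited table, whose genome build is not given in the sources used here. Its length is listed as 534 bases in a span of 696 bases, and the table gives it a ribonuclease T2 domain. The table holds 2 genes with this description, and the other, PARG20298, lies on the same linkage group at 2751112 to 2753328 and is also listed with 534 bases. RNA was sequenced from whole floral organs of Prunus sibirica, taken at bloom under natural frost at -4 °C. Clone 338, with strong frost resistance, and clone 28, with weak frost resistance, gave 3 libraries each. Every flower had met frost, and each kind of resistance was represented by a single clone. The S genotypes of the clones are not given in the labels. The flowers were not divided into organs, so the table cannot show whether the S-3 reads came from the pistil.

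S-RNases are the female side of self-incompatibility in the rose family. They are secreted ribonucleases of the style, and they stop the growth of pollen tubes that carry a matching S haplotype. In Prunus the S locus couples an S-RNase gene with an F-box gene expressed in pollen, whose product is thought to act in an SCF ubiquitin ligase together with SKP1-like, cullin and RING-box subunits. S-RNase alleles differ widely in sequence, so reads from another allele may not align to the copy in a reference.

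S-3 was detected in all 3 libraries of the weak clone and was nearly absent from the strong clone. Levels are given in FPKM, read fragments scaled by gene length and by library, and the reads behind them were computed from the deposited values. In the weak clone S-3 stood at 4.88 FPKM in library 1 (27 reads), 3.79 FPKM in library 2 (22 reads) and 6.75 FPKM in library 3 (75 reads). In the strong clone it stood at 0.164 FPKM in library 1, which rested on 2 reads, and had 0 reads in libraries 2 and 3. The clones did not overlap, and weak library 3 was the highest. A count of 0 allows up to 0.355 FPKM in strong library 2 and 0.257 FPKM in strong library 3, the upper ends of exact 95% Poisson intervals. Exact 95% Poisson intervals ran from 2.38 to 5.75 FPKM in the lowest weak library and from 0.0199 to 0.594 FPKM in the highest strong library. Those of weak libraries 1 and 3, at 3.21 to 7.10 and 5.31 to 8.47 FPKM, overlapped, so their order is not settled by these counts. The intervals cover counting error only.

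**Figure D1:**
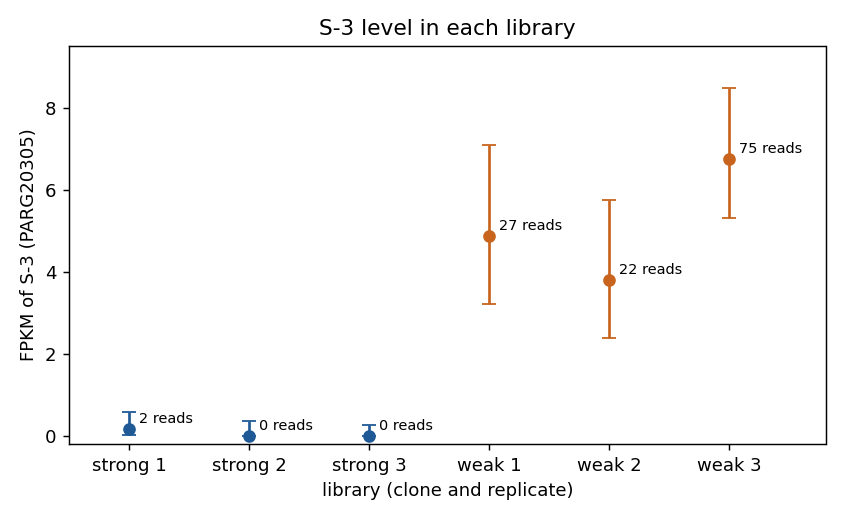
FPKM of S-3 in each of the 6 libraries, with exact 95% Poisson intervals for counting error and the number of reads beside each point. The 3 weak libraries lie between 3.79 and 6.75 FPKM, and the highest strong library lies at 0.164 FPKM.

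The weak clone averaged 5.14 ± 1.50 FPKM, against 0.0548 ± 0.0949 FPKM for the strong clone (SD, n = 3 each). On the log2(FPKM + 1) scale, the difference of strong minus weak was -2.52 ± 0.24 (SE, limma adjusted p = 0.00436), with a 95% interval from -3.09 to -1.95. That scale understates the change of a gene this low. The weak clone had 124 reads and the strong clone 2. Scaled by what a read was worth in FPKM, pooled per clone, the ratio of weak to strong was 102. Its exact 95% interval for counting error ran from 27.6 to 851. The ratio rests on the deposited scaling, in which a read was worth more in weak libraries 1 and 2. The difference was -5.21 with a pseudocount of 0.1 FPKM and -0.99 with 5 FPKM, and limma voom on the reads gave -6.23. An exact permutation test on the log2 values gave p = 0.1, two-sided, the smallest that 3 libraries against 3 allow. S-3 passed the filter, at least 1 FPKM in at least 3 libraries, through the weak libraries alone. Of the 16462 genes tested, 7.78% were called lower in the strong clone and 22.1% had all weak libraries above all strong ones. The labels do not say whether a clone's libraries stem from different trees, and the p-values therefore cover a spread that may be technical. Whether the clones differ in S-3 expression, in allele sequence or in gene copies cannot be told apart, nor can fewer cells of a type from less RNA per cell.

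The call held when any single library was left out, with limma adjusted p values from 0.000158 to 0.0384. The set of tested genes was kept as chosen on all 6 libraries. With a weak library left out, S-3 would not have reached the filter. The count of calls over all genes rested more on single libraries and went from 2520 to 166 without strong library 1, 353 without strong library 2, 230 without strong library 3, 610 without weak library 1, 395 without weak library 2 and 12075 without weak library 3. Libraries held 16367632 to 18866306 reads. The summed FPKM was 1217398 and 1106483 in weak libraries 1 and 2, against 464129 to 591204 in the other 4 libraries, and a read of a gene of 1 kb was worth 0.0965 and 0.0921 FPKM in that pair, against 0.0372 to 0.0514 FPKM elsewhere. With all libraries rescaled to an equal sum, the median difference of all tested genes moved from 0.05 to 0.76 and that of S-3 was -2.26 (limma adjusted p = 0.0192).

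Where it was detected in the weak clone, S-3 was a gene of middling level. It ranked 10186th, 11175th and 10066th from the top in weak libraries 1, 2 and 3. This placed it above 49.0%, 44.7% and 52.6% of the genes with any reads there, whose median levels were 5.15, 5.17 and 5.91 FPKM. In strong library 1 it stood above 9.28% of such genes.

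Beside S-3, the ribonuclease T2 family, enzymes that cut RNA outside the cytosol, numbered 8 genes in the table. Of these, the genes described as ribonucleases 1, 2 and 3 reached the filter and the other 5 did not. PARG20635, ribonuclease 2, on linkage group 6, was the most abundant, at 167, 209 and 129 FPKM in strong libraries 1, 2 and 3, and 407, 357 and 171 FPKM in weak libraries 1, 2 and 3. PARG06349, ribonuclease 3, stood at 39.9, 68.2 and 28.0 FPKM in the strong libraries and 161, 143 and 37.2 FPKM in the weak ones. PARG06348, ribonuclease 1, its neighbour on linkage group 2, stood at 15.3, 29.1 and 12.0 FPKM against 53.2, 38.1 and 14.5 FPKM. In each of these 3 genes the clones overlapped, and weak library 3 was the lowest of the weak libraries, where S-3 had its highest value.

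Over all 16462 tested genes, limma called 2520, voom called 2208 and 7540 had an unadjusted p under 0.05. None of the 3 ribonuclease genes passed the limma test, with 0 of them called by voom and 0 at an unadjusted p under 0.05. Their differences of strong minus weak were -0.82 (95% interval -1.80 to 0.17), -1.15 (-2.63 to 0.34) and -0.79 (-2.06 to 0.49) in the order named, with limma adjusted p values of 0.157, 0.179 and 0.263. With equal sums those of PARG20635 and PARG06348 turned to 0.014 and 0.018. Without weak library 3 all 3 were called, at -1.20, -1.81 and -1.31 (limma adjusted p = 0.00566, 0.00394 and 0.0164). That fit called 12075 of all 16462 tested genes. With the replicate number as a block, PARG06349 was called (limma adjusted p = 0.0378) and PARG06348 was not (0.104). The difference of S-3 from these genes was not tested.

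The other genes described as S-RNases were at or near 0. PARG20303, ribonuclease S-7, 16403 bases from S-3, had 5, 2 and 0 reads in weak libraries 1, 2 and 3 and 0 reads in the strong clone. PARG20298, the second gene described as ribonuclease S-3, had 1 read, in strong library 3. PARG02864, ribonuclease S-4, on linkage group 1, had 0 reads in all 6 libraries, as had the undescribed T2 gene PARG23382. No gene described as an S-RNase therefore exceeded 0.164 FPKM in any strong library. An undescribed T2 gene on linkage group 7, at 6056561 to 6057818, was under the filter. It stood at 0.518, 0.234 and 0.169 FPKM in the strong libraries and 0.701, 1.76 and 2.88 FPKM in the weak ones, highest in weak library 3 as S-3 was. Its reads overlapped between the clones, with 13, 5 and 5 in the strong libraries and 8, 21 and 66 in the weak ones. Reads from near-identical copies could have been assigned to either copy or left out, which the table does not show.

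**Figure D2:**
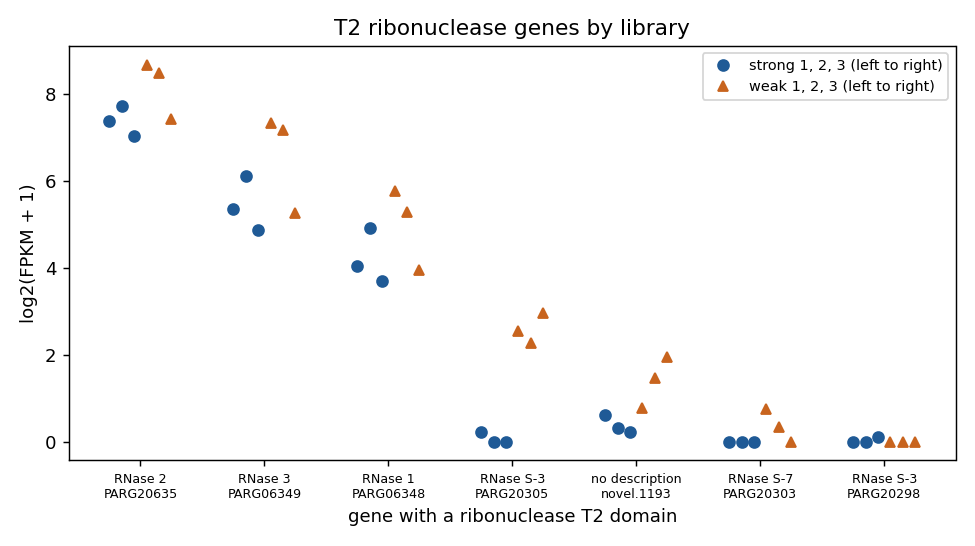
Log2(FPKM + 1) of the 7 T2 ribonuclease genes with any reads, in the 3 strong libraries (circles) and the 3 weak libraries (triangles). S-3 separates the clones with strong values from 0 to 0.22 and weak values from 2.26 to 2.95, whereas ribonucleases 1, 2 and 3 overlap between them.

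S-3 is 1 of 3 genes described as S-RNases that lie close together on linkage group 6, the farthest 52319 bases from S-3, with 2 F-box genes in the same stretch, the kinds of gene that pair at the Prunus S locus. The nearest gene, PARG20304, is a putative F-box gene on the opposite strand, at 2803685 to 2805010, 637 bases from S-3. It stood at 1.92, 4.85 and 1.63 FPKM in the strong libraries and 18.2, 17.4 and 5.37 FPKM in the weak libraries. The second F-box gene, PARG20299, 45436 bases from S-3, stood at 1.90, 4.95 and 1.02 FPKM against 24.2, 22.8 and 4.99 FPKM. Both were highest in weak libraries 1 and 2, unlike S-3, and both were still present in every strong library.

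Neither F-box gene passed the test, at -1.88 ± 0.52 for PARG20304 and -2.23 ± 0.66 for PARG20299 (SE, limma adjusted p = 0.0562 and 0.0620). Both passed without weak library 3 (limma adjusted p = 0.00129 and 0.00136), a fit that called 12075 of all 16462 tested genes. PARG20304 also passed with quantile scaling (0.0492). With the replicate number as a block both F-box genes passed as well (limma adjusted p = 0.0106 and 0.00809). Whether either gene is the pollen S determinant is not annotated. The table holds 12 F-box genes within 1 Mb of S-3, of which 5 were tested. By limma 0 were called, and 0 by limma voom on the reads, against 2520 and 2208 of all 16462 tested genes. The 2 beside S-3 had an unadjusted p under 0.05, as had 7540 of all 16462 tested genes. Of the other abundant genes in that stretch, PARG20453 was at 20.3, 14.8 and 26.9 FPKM against 11.5, 9.33 and 16.6 FPKM, and PARG20216 had a difference of -0.24, which turned to 0.53 with equal sums.

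Of the 5 neighbours on each side of S-3, 6 were tested and 2 were called (33.3%), both lower in the strong clone. Over all tested genes 15.3% were called and 7.78% were called lower. A share of 6 genes is coarse. PARG20301, without description, was at 1.80, 5.11 and 1.12 FPKM against 37.8, 33.3 and 8.99 FPKM (-2.84 ± 0.63, SE, limma adjusted p = 0.0345). PARG20309, a polygalacturonase, an enzyme that degrades pectin, was at 1.84, 2.11 and 0.918 FPKM against 11.4, 9.86 and 3.52 FPKM (-1.73 ± 0.43, limma adjusted p = 0.0452). Both calls were lost without any strong library and without weak library 1 or 2, with adjusted p values up to 0.142 and 0.174, and that of PARG20309 also with equal sums (adjusted p = 0.0569), with voom (0.0587), with a pseudocount of 0.1 FPKM (0.0518) and without the filter (0.0602). The subunit of succinate-CoA ligase PARG20300, PARG20307 and PARG20308 differed by -1.04, -0.40 and 0.23 and were not called. Without weak library 3 the first and second of these passed (limma adjusted p = 0.00124 and 0.00602), as did 12075 of all 16462 tested genes. PARG20302, PARG20306 and PARG20310 had 0 reads in every library.

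Over a wider stretch, 38 other genes started within 100 kb of S-3, and 23 of them were tested. Of these 1 was higher and 3 were lower in the strong clone, 17.4% in all, against 7.53% higher, 7.78% lower and 15.3% in all over the genes tested. Within 1 Mb, 13 of 200 tested genes were higher and 15 lower (14.0%), and their median difference was 0.073, against 0.049 for all genes. Over linkage group 6 without S-3, 16.0% of 1556 tested genes were called. These shares were near the background.

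**Figure D3:**
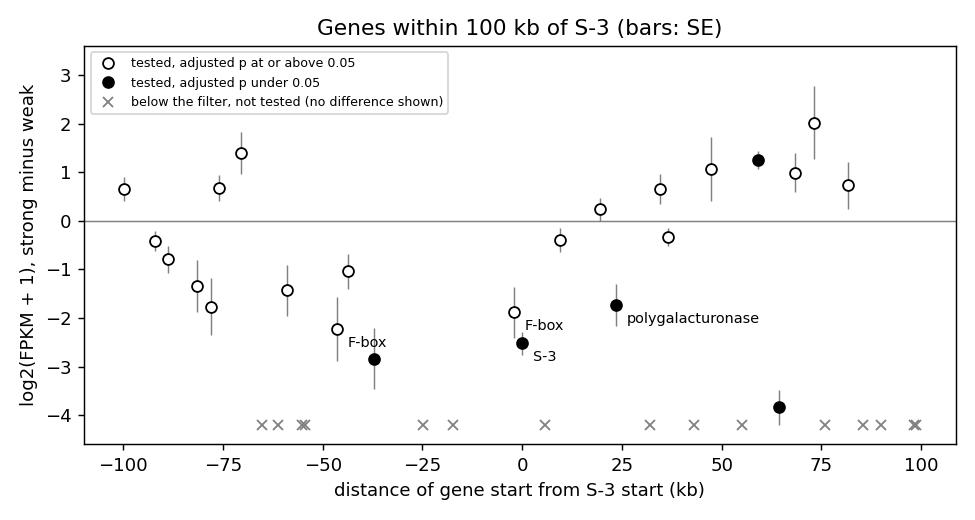
Difference in log2(FPKM + 1), strong minus weak, with SE, of genes that start within 100 kb of S-3, by distance of their start in kb. Filled points passed the test, open points did not, and crosses mark genes below the filter. S-3 lies at -2.52, and 4 of the 23 other tested genes are filled.

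Detection in the weak clone alone was uncommon. Across the table, 101 genes (0.317%), S-3 among them, had at least 1 FPKM in each weak library and at most 3 reads over the strong libraries. This limit was chosen after the values of S-3 were seen. Of the 101 genes, 67 had 0 strong reads and 63 had no description. Linkage group 6 held 17 of them (16.8%), and it holds 9.51% of all genes. Besides S-3, 3 of 338 genes within 1 Mb were of this kind (0.888%), all without description. The reverse kind, present in the strong clone alone by the same limits, numbered 74 genes, with 6 on linkage group 6 and 1 within 1 Mb. Weak library 3 was the highest weak library in 13 of the 101 genes, S-3 included, and weak libraries 1 and 2 were the highest in 60 and 28.

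Among 1281 genes called lower in the strong clone, 70 (5.46%) had their highest value in weak library 3, as S-3 did. Over all tested genes, whose highest value could lie in any of the 6 libraries, that share was 12.5%. Counting error left the order of weak libraries 1 and 3 in S-3 unsettled. The genes most like S-3 in profile were found by Pearson correlation of log2(FPKM + 1) over the 6 libraries, among tested genes with a mean of at least 5 FPKM. These 6 points share their libraries and their scaling, so the likeness is a description. The long chain acyl-CoA synthetase 2 gene PARG21397, which activates fatty acids, had the highest value (r = 0.998), at 2.10, 1.80 and 1.72 FPKM against 13.8, 10.1 and 14.8 FPKM. PARG26883, named for isoleucine N-monooxygenase 2, a cytochrome P450, had r = 0.995 and stood at 0.674, 0.954 and 0.286 FPKM against 29.0, 23.7 and 52.1 FPKM. The list went on with a uridine-cytidine kinase gene (PARG28434), a branched-chain aminotransferase-like gene (PARG02951), an acetyltransferase gene (PARG11217), the ribosome biogenesis gene NSA2 (PARG09466) and the undescribed PARG14921 and PARG17364, all with r from 0.991 to 0.996.

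By the distance between profiles, which also asks for a like level, an undescribed gene on linkage group 5 at 17063337 to 17065129 was nearest (0.378 on the log2 scale). It had 0 reads in the strong clone and stood at 4.40, 3.29 and 8.11 FPKM in the weak libraries. PARG14920, PARG22312 and PARG14919 followed, at 0.489, 0.538 and 0.586. PARG22312 is a wall-associated receptor kinase-like gene, also on linkage group 6 but 14467234 bases from S-3. PARG14919, PARG14920 and PARG14921 are neighbouring undescribed genes on linkage group 4, all with 0 reads in the strong clone. Their weak values were 3.45, 3.92 and 5.02 FPKM, 4.77, 4.56 and 9.10 FPKM, and 7.48, 5.97 and 17.0 FPKM in libraries 1, 2 and 3.

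Genes of a pistil list were present in the strong clone, where S-3 was nearly absent. The pistil list, drawn from descriptions and domains, had 36 genes, of which 15 had 0 reads in every library. It includes genes that are not of the pistil alone, such as PARG18582, described as Dicer homolog 1 (-0.21, not called). Of 13 tested, 1 was higher and 1 lower in the strong clone (15.4%, against 15.3% of all genes). The difference of strong minus weak was positive in 7 of the 13 and negative in 6. The summed level of the list was 254 to 302 FPKM in the strong libraries and 176 to 212 FPKM in the weak libraries. PARG14213, of AGL1, a MADS-box factor of the carpel in Arabidopsis, was the largest part of that sum in every library. It stood at 212, 151 and 235 FPKM against 105, 76.3 and 131 FPKM (0.94 ± 0.31, SE, limma adjusted p = 0.0718). The clones were not compared by a sum without it. HEC2 (PARG07785) and SPATULA (PARG07773) are factors of style and transmitting tract growth in Arabidopsis. HEC2 stood at 6.15, 5.74 and 7.95 FPKM in the strong libraries, had 0 reads in weak libraries 1 and 2 and stood at 4.58 FPKM in weak library 3. SPATULA stood at 7.05, 6.13 and 9.12 FPKM against 0.0646, 0.432 and 7.79 FPKM. A second SPATULA gene (PARG26906) was also higher in each strong library, at 5.51, 4.34 and 5.20 FPKM against 2.75, 3.40 and 3.78 FPKM. Not all members of the list had this order. HEC3 (PARG01601) was higher in each weak library, at 1.26, 1.75 and 0.908 FPKM against 3.07, 5.77 and 1.79 FPKM. None of these 5 genes was called by limma over all 6 libraries. Without weak library 3, AGL1, HEC2 and SPATULA (PARG07773) passed (limma adjusted p = 0.00765, 9.26e-05 and 0.000186), as did 12075 of all 16462 tested genes. These 5 genes and PARG10325 were named after their values were seen.

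SHI RELATED SEQUENCE 1 (PARG07210), of a family that shapes the style in Arabidopsis, was called higher in the strong clone (1.86 ± 0.37, SE, limma adjusted p = 0.0272). A gene with the domain of the stigma protein STIG1 (PARG24424) was called lower (-1.35 ± 0.27, limma adjusted p = 0.0262), and it passed the filter through the weak libraries alone. Both calls were lost without any strong library and without weak library 1 or 2, with adjusted p values up to 0.115 and 0.126. The STIG1-like gene PARG10325 was at 2.14, 3.03 and 1.66 FPKM against 9.22, 6.74 and 3.42 FPKM and was not called (limma adjusted p = 0.0684, and 0.00176 without weak library 3). The fit without weak library 3 called 12075 of all 16462 tested genes. The gene described as DROOPING LEAF (PARG06423), a YABBY factor that specifies the carpel in rice, fell under the filter. It had 0 reads in the strong clone and 5, 2 and 31 reads in weak libraries 1, 2 and 3, with its highest value in weak library 3, as S-3 had. It is named here after its values were seen.

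Pollen and green tissue markers differed between libraries, and their part in the S-3 difference was not tested. The pollen list of 135 genes summed to 46698 to 52898 FPKM in weak libraries 1 and 2, 16723 FPKM in weak library 3 and 9461 to 18554 FPKM in the strong libraries, so that weak library 3 lay within the strong range. Of its 76 tested genes 1 was higher and 7 lower in the strong clone (10.5%, under the 15.3% of all genes), and 23 of the 135 had 0 reads. The anther gene LAT52 (PARG10934) was at 1440, 2618 and 1059 FPKM in the strong libraries and 8917, 7714 and 2391 FPKM in weak libraries 1, 2 and 3. The clones overlapped in LAT52, which was not called (limma adjusted p = 0.148, and 0.0139 without weak library 3, where 12075 of all 16462 tested genes were called). Among the weak libraries, S-3 had its highest value in library 3, the one lowest in pollen markers. Over all 6 libraries the log2(FPKM + 1) values of S-3 and LAT52 correlated at r = 0.70. The relation was not tested. The green list of 53 photosystem and chlorophyll-binding genes summed to 4967 to 5833 FPKM in the strong libraries and 3476 to 3554 FPKM in the weak ones. Of its 43 tested genes 16 were higher and 3 lower (44.2%, against 15.3% of all genes), while voom called 7 higher and 2 lower. Of 9 genes for petal scent and pigment enzymes 6 were tested, 2 higher and 1 lower (50%), and voom called 1 higher and 1 lower. These 9 genes summed to 89.7 to 123 FPKM in the strong and 106 to 127 FPKM in the weak libraries. Over all 16462 tested genes voom called 923 higher and 1285 lower.

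**Figure D4:**
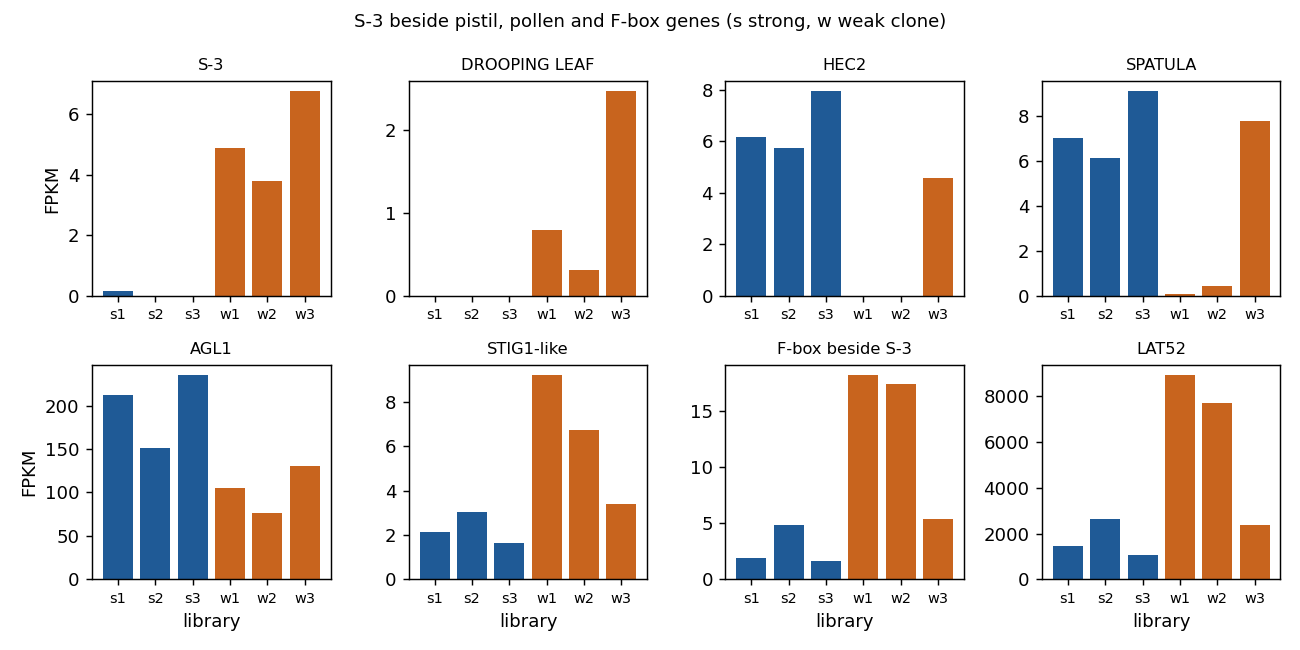
FPKM of S-3, 5 pistil genes, the F-box gene 637 bases from S-3 and the anther gene LAT52 in strong (s) and weak (w) libraries, each panel on its own axis from 0. S-3 and DROOPING LEAF peak in weak library 3, HEC2 is at 0 in weak libraries 1 and 2, and the F-box gene and LAT52 peak in weak libraries 1 and 2.

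Genes for the subunits of SCF ligases were present in both clones. The SKP1-like, cullin-1 and RING-box lists held 27 genes, of which 15 were tested with limma, 0 higher and 1 lower (6.67%, against 15.3% of all genes), and voom gave the same counts. At an unadjusted p under 0.05, 3 were higher and 2 lower, against 3698 higher and 3842 lower of all 16462 tested genes. The called gene was a SKP1-like gene (PARG11296), at 27.6, 39.1 and 20.8 FPKM against 176, 142 and 54.7 FPKM (-1.94 ± 0.48, SE, limma adjusted p = 0.0439). The most abundant SKP1-like gene, PARG07125, was at 226, 212 and 222 FPKM against 255, 215 and 206 FPKM and was not called (-0.031, adjusted p = 0.924). The cullin-1 gene PARG19960 was at 37.1, 49.1 and 33.3 FPKM against 92.4, 88.1 and 46.6 FPKM and did not pass either (adjusted p = 0.0888).

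Thioredoxin H proteins have been linked to S-RNase activity in Nicotiana. Of 11 such genes, 5 were tested with limma, 0 higher and 1 lower (20.0%, against 15.3% of all genes). At an unadjusted p under 0.05, 1 was higher and 2 were lower, against 7540 in either direction of all 16462 tested genes. Voom called 0. The called gene was the low PARG07229, at 2.10, 2.77 and 1.56 FPKM against 4.62, 4.41 and 4.61 FPKM (limma adjusted p = 0.0484). Its call and that of PARG11296 were lost without any strong library and without weak library 1 or 2, with adjusted p values up to 0.197 and 0.169, and that of PARG07229 also with equal sums (adjusted p = 0.560) and voom (0.0784). Without the filter, and with a pseudocount of 0.1 FPKM, neither passed (adjusted p from 0.0505 to 0.0736), nor did PARG11296 with a filter of 5 FPKM in 3 libraries (0.0538).

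The domain of the self-incompatibility protein S1, a secreted peptide that acts in poppy by another mechanism, was listed in 27 genes, of which 15 had 0 reads and 2 were tested. PARG29812 was at 4.72, 3.92 and 1.86 FPKM in the strong libraries and 112, 106 and 27.6 FPKM in the weak ones (-4.03 ± 0.58, SE, limma adjusted p = 0.0121). PARG03845 ran the other way, at 1.40, 1.48 and 1.26 FPKM against 0.198, 0.378 and 0.0986 FPKM (0.96 ± 0.18, limma adjusted p = 0.0234), and it passed the filter through the strong libraries alone. The first call was lost without any strong library or without weak library 2 (adjusted p up to 0.0637) and the second without any library but weak library 3 (up to 0.120) and with quantile scaling (0.139).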

How the data were processed

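Flowers of the 2 clones were sequenced in 3 libraries each. CASAVA, RSEM and Bowtie2 are named in the submitters' processing notes, with no version. The genome build is not given in the sources used here. Deposited by the authors were FPKM values per gene with positions, lengths and descriptions. The product of value and gene length came in equal steps in each library (100% of positive values, within 0.01 read), and the number of steps gave the reads per gene. All library pairs differed by more than sampling noise (chi-square per degree of freedom at least 10.6, between weak libraries 1 and 2). By that measure weak library 3 differed less from the strong libraries (54 to 148) than from weak libraries 1 and 2 (216 and 194). Genes that reached 1 FPKM in 3 or more libraries were tested with limma 3.58.1 in R 4.3.3 (lmFit, eBayes with trend) on log2(FPKM + 1), strong minus weak, two-sided, with Benjamini-Hochberg adjustment over all tested genes and a threshold of 0.05. The test was first run on simulated data. Rates of reads were compared by exact binomial intervals in scipy 1.17.1. Named genes were S-3, its 5 neighbours on each side, the T2 ribonucleases, called or else the 4 most abundant genes of the self-incompatibility, pistil and nearby F-box lists, and the 8 and 4 genes most like S-3. Others were chosen after their values were seen. The members and lists were chosen with earlier results of these data known, and the self-incompatibility and T2 lists were narrowed to families and domains once the descriptions had been read. Sequences were not used here.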

Additional observations from a re-analysis of the deposited data

How the results depend on the processing

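S-3 was lower in the strong clone and passed the test under all 13 alternatives that gave a value: other pseudocounts, no filter, equal sums, quantile scaling, limma voom on the reads, the replicate block and each library left out (-2.68 to -2.34, strong minus weak). A filter of 5 FPKM in 3 libraries removes it, and the fits with a library left out kept the genes chosen on all 6 libraries. With the replicate block its difference was -2.52 ± 0.27 (SE, limma adjusted p = 0.00332). Whether the replicate numbers pair the libraries was not settled. Deviations of same-numbered libraries correlated at -0.24, 0.59 and 0.61 over genes, and those of strong library 2 and weak library 1 at 0.62. The count of genes called, 2520, was 1183 with the filter of 5 FPKM, 6439 with the replicate block and 166 to 12075 with a library left out. With equal sums, 1568 were higher and 747 lower, against 1239 and 1281, and the differences of PARG06348, PARG20216, PARG20307 and PARG20635 turned to 0.018, 0.53, 0.37 and 0.014; the cause was not tested. Of 38 other named genes, 23 were called, 17 of them also with equal sums and 8 to 23 with a library left out. Of the 15 not called, 14 passed without weak library 3 and 8 with the replicate block. Those settings called 12075 and 6439 of all 16462 tested genes. The level of S-3 in the strong clone rests on 2 reads, which limits any ratio.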
